A study of Macaca fascicularis and Mus musculus with 492 samples.

Results

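DPRX and ARGFX are divergent homeobox genes, and both were taken by name from the gene table of the cynomolgus monkey cells, as 2 of its 29095 genes. They were picked with their levels by embryonic day already known, so their own values are given as a description, with no test. The table lists them under gene IDs 102117340 (DPRX) and 102125692 (ARGFX) on the macFas5 build.

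Both genes belong to the PRD class of homeobox genes, which encode transcription factors that bind DNA through a homeodomain. DPRX, ARGFX, LEUTX, TPRX1, TPRX2 and PARGFX form the ETCHbox group, which arose in placental mammals from tandem copies of the photoreceptor gene CRX and then changed fast in sequence. In human embryos several of them are switched on around embryonic genome activation and silenced again before implantation, and the mouse has lost Argfx and Dprx and carries an enlarged Obox family of the same origin.

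The libraries are SC3-seq libraries of single cells, in which cDNA is amplified from 1 cell and sequenced at the 3′ ends of transcripts. The monkey cells were 31 embryonic stem cells (ESCs) in 3 cultures and 390 embryo cells. CMK6 ESCs grown on mouse feeder cells gave 14 cells, CMK6 ESCs in feeder-free medium gave 9 and CMK9 ESCs on feeders gave 8. The embryo cells were taken at E06 (43 cells), E07 (35), E08 (95), E09 (20), E13 (46), E14 (62), E16 (36) and E17 (53). Up to E09 whole embryos were dissociated, and from E13 on a hand-dissected embryonic fragment, per the labels' protocols, so that stage and dissection cannot be told apart. No label gives a sex, strain or embryo for these cells. Mouse cells, used here for the mouse relatives alone, were 71 C57BL/6 cells: 25 of E5.5 and 24 of E6.5 embryos (epiblast and visceral endoderm, at E6.5 the proximal epiblast), 12 EpiLCs, which are epiblast-like cells induced from ESCs with activin A and bFGF, and 10 ESCs of the line BVSC R8, the source of the EpiLCs. Reads per cell ran from 166753 to 4491536 with a median of 1879413, and E17 had the lowest median of the groups, at 912251. Levels are in RPM (reads of a gene, scaled to the library's total) or as log2(RPM + 1).

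Cell classes were rebuilt by clustering without DPRX and ARGFX. A name required that more than 50% of a class's detected markers were raised in a cluster, but this was not enough by itself. A name could also be withheld over the markers among a cluster's 10 leading genes. The E06 cells fell into an inner-cell-mass-like cluster (31 cells) and a cluster left unnamed, called cluster 10 (12 cells, plus 9 of E07), in which 8 of 10 trophectoderm markers and 5 of 9 inner cell mass markers were raised. At E07 to E09 the classes were epiblast-like (34 cells), hypoblast-like (54) and trophectoderm-like (52), and later ones were epiblast-like (105), gastrulating-like (31), extraembryonic-mesenchyme-like (32), trophectoderm-like (11) and an unnamed cluster 3 (18). Clusters 10 and 3 passed the 50% mark, cluster 3 with 4 of 7 epiblast markers, yet were left unnamed. The leading genes of cluster 10 held the inner cell mass marker ESRRB and no trophectoderm marker. Those of cluster 3 held the gastrulating marker T and no epiblast marker. Differences between the classes come from rebuilt names and are given as values only.

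DPRX was at its highest at E06, where a read was found in 43 of 43 cells at a median of 935.6 RPM, and it was nearly gone by E13. Its E06 cells ranged over 160 to 1827.5 RPM. At E07 it was found in 35 of 35 cells, with a median of 57.2 RPM and a range of 0.557 to 850.2 RPM. At E08 87 of 95 cells held a read, and the median was 12.8 RPM with a highest cell of 857.1 RPM. All 20 cells of E09 held a read, at a median of 19.6 RPM and a highest value of 607 RPM. The spread over cells was narrow at E06 and wide from E07 to E09: the SD of log2(RPM + 1) was 0.70 at E06, 2.84 at E07, 3.22 at E08 and 2.65 at E09. The means of E08 (4.17) and E09 (4.52) lay well within that spread of each other. From E13 on the median was 0 RPM on every day. DPRX was detected in 7 of 46 cells at E13, 14 of 62 at E14 and 9 of 36 at E16, with highest cells of 8.82, 53.8 and 41.1 RPM. These shares have exact 95% Clopper-Pearson intervals of 6.34 to 28.9%, 12.9 to 34.97% and 12.1 to 42.2%. The intervals cover counting error only, and the shares also differed by the code in the sample titles, given below. At E17 it was detected in 0 of 53 cells, which allows a share of up to 5.66%. The median depth at E17 was the lowest of all, and the part of depth in this zero was not tested.

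**Figure D1:**
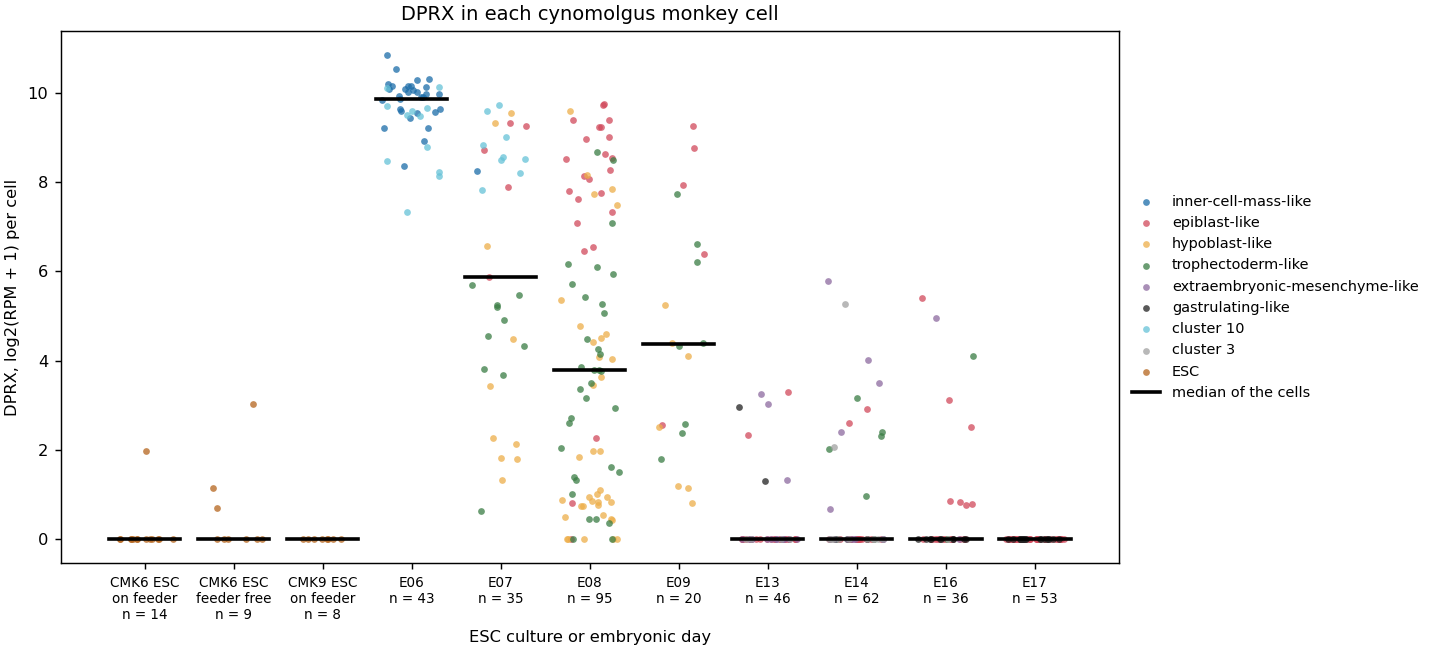
DPRX in each monkey cell as log2(RPM + 1), by ESC culture and by embryonic day; points are cells coloured by class and the black bar is the median of a group. All 43 E06 cells lie at 160 RPM or more, E07 to E09 spread from 0 to 857.1 RPM, and the medians of the ESC cultures and of E13 to E17 are 0.

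At E07 to E09 the level of DPRX differed by cell class. Inner-cell-mass-like E06 cells averaged 9.86 ± 0.48 on the log2(RPM + 1) scale (SD over 31 cells, from 327 to 1827.5 RPM). Cluster 10 averaged 9.10 ± 0.89 at E06 (12 cells) and 8.75 ± 0.62 at E07 (9 cells). The epiblast-like means were 8.21 ± 1.43 at E07 (5 cells), 7.44 ± 2.66 at E08 (24 cells) and 6.97 ± 2.70 at E09 (5 cells). Neighbours in this order differed by less than the larger of their 2 SDs. The 5 epiblast-like cells of E07 held 57.2, 236, 423, 608 and 636 RPM of DPRX, and the 5 of E09 held 4.88, 82.7, 242, 431 and 607 RPM. So the level varied widely even inside the epiblast-like class, where 1 of 24 cells at E08 held no read and the highest held 857.1 RPM.

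In the 2 named extraembryonic classes of the same days, trophectoderm-like and hypoblast-like, DPRX was lower, but most cells still held at least 1 read. Cluster 10, in which most trophectoderm markers were also raised, is not counted among them and averaged 8.75 ± 0.62 at E07 (9 cells). Trophectoderm-like cells averaged 4.35 ± 1.47 at E07 (10 cells), 3.54 ± 2.34 at E08 (34 cells) and 4.50 ± 2.19 at E09 (8 cells). Their medians were 25.6, 11.5 and 19.7 RPM. Hypoblast-like cells averaged 4.27 ± 3.14 at E07 (10 cells), 2.62 ± 2.75 at E08 (37 cells) and 2.77 ± 1.80 at E09 (7 cells), with medians of 6.75, 1.00 and 4.71 RPM. The 2 extraembryonic classes overlapped within 1 SD on each day. Of the 54 hypoblast-like cells 49 held a read, but only 20 reached 10 RPM. Trophectoderm-like cells reached 10 RPM in 9 of 10 at E07, 18 of 34 at E08 and 5 of 8 at E09.

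A few cells of these classes held as much DPRX as the epiblast-like ones. Among 54 hypoblast-like cells 7 held at least 100 RPM, from 177 to 771 RPM, and among 52 trophectoderm-like cells of E07 to E09 there were 4, from 134 to 410 RPM. The 7 hypoblast-like cells held 132 to 852 RPM of GATA4, an endoderm transcription factor, beside a median of 416 RPM in their class and 2.88 RPM in early epiblast-like cells. Their NANOG, a pluripotency factor, was 0.727 to 101 RPM, beside 5.61 RPM in the class and 1706 RPM in early epiblast-like cells. The level of NANOG was 24.8 and 101 RPM in the 2 of them from E07. Other markers of the 7 cells were mixed. SOX17, an endoderm factor, was 0.935 RPM in the cell with the most DPRX and 68.2 to 1162 RPM in the other 6, beside a median of 366 RPM in the class and 1.04 RPM in early epiblast-like cells. POU5F1, a pluripotency factor, was 99.8 to 754 RPM and above the class median of 188 RPM in 5 of the 7, beside 1103 RPM in early epiblast-like cells. Over the 10 hypoblast-like cells of E07, DPRX went with the mean of the epiblast markers (Pearson's r = 0.93, Spearman's rho = 0.79). It also went with that of the inner cell mass markers (r = 0.75, rho = 0.83), and ran opposite to that of the hypoblast markers (r = -0.52, rho = -0.44). Over the 37 cells of E08 r was 0.26 for the epiblast, -0.08 for the inner cell mass and -0.53 (rho = -0.15) for the hypoblast markers. Whether mixed cells take part in this was not tested.

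**Figure D2:**
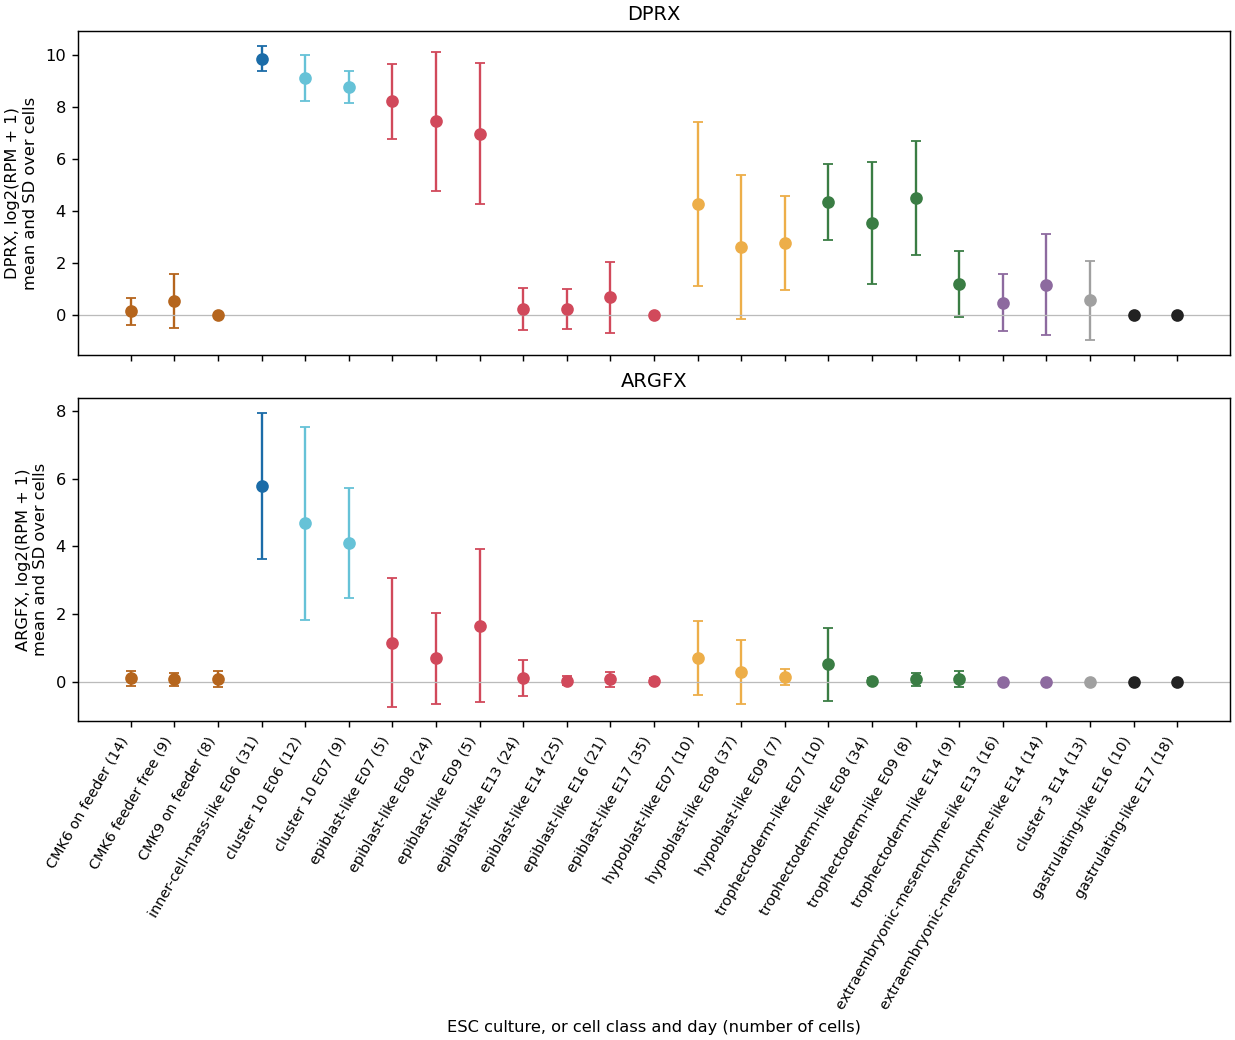
Mean log2(RPM + 1) of DPRX (above) and ARGFX (below) for each ESC culture and each cell class and day with at least 5 cells; bars are the SD over cells and the number of cells is in brackets. DPRX steps down across the early classes and stays between 2.62 and 4.50 in early hypoblast-like and trophectoderm-like cells, while ARGFX is above 2 only in the inner-cell-mass-like cells and cluster 10.

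ARGFX had a narrower window than DPRX and was a gene of E06 and of part of the E07 cells. At E06 it was detected in 40 of 43 cells, with a median of 71.3 RPM and a highest cell of 882.5 RPM. At E07 it was detected in 20 of 35 cells, at a median of 0.425 RPM and at most 39.96 RPM. At E08 12 of 95 cells and at E09 5 of 20 cells held a read, with highest cells of 33.3 and 20.8 RPM. ARGFX was then found in 1 of 46 cells at E13, 2 of 62 at E14, 3 of 36 at E16 and 1 of 53 at E17. Of those 7 late cells 5 held a single read, and the highest held 6.58 RPM. The means of E08 (0.29) and E09 (0.49) differ by less than the SD over cells of either day (0.93 and 1.26).

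Within E06 ARGFX was carried by both clusters. The inner-cell-mass-like cells had it in 29 of 31 cells at a median of 74.3 RPM (mean 5.79 ± 2.17 on the log2(RPM + 1) scale, highest 634 RPM). Cluster 10 had it in 11 of 12 cells at E06, at a median of 38.5 RPM (4.68 ± 2.86), and in 8 of 9 cells at E07, at a median of 21.2 RPM (4.10 ± 1.62). At E07 those 8 cells and the 1 inner-cell-mass-like cell, at 39.96 RPM, were 9 of the 12 cells that reached 10 RPM. The epiblast-like cells of E07 held 0 RPM of ARGFX in 3 of 5 cells and 1.62 and 19.7 RPM in the others. Those of E09 held 0 RPM in 3 of 5 cells and 12.8 and 20.8 RPM in the others. At E08 7 of 24 epiblast-like cells held a read, and 1 of them reached 10 RPM. The shares were 4 of 37 in hypoblast-like and 1 of 34 in trophectoderm-like cells of E08. No read was found in 32 extraembryonic-mesenchyme-like cells (up to 9.38%) or in 31 gastrulating-like cells (up to 9.68%).

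**Figure D3:**
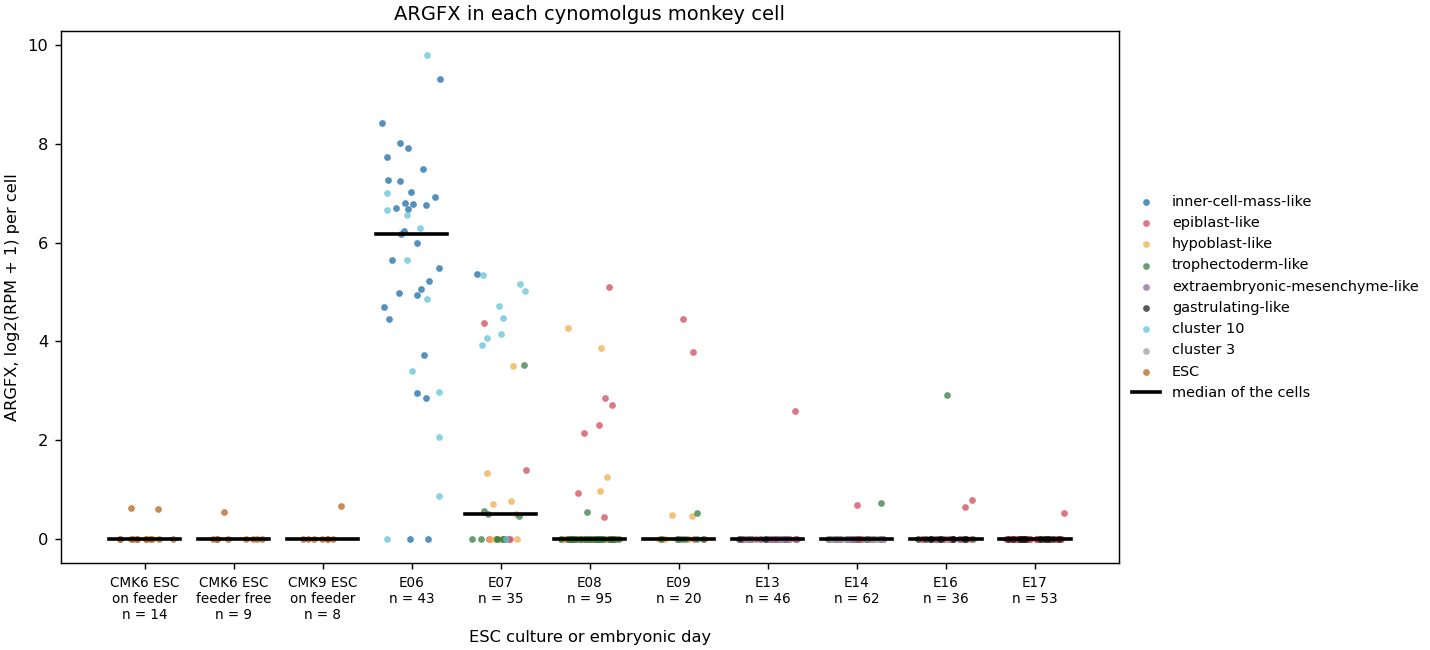
ARGFX in each monkey cell as log2(RPM + 1), by ESC culture and by embryonic day; points are cells coloured by class and the black bar is the median of a group. Only E06 has a median well above 0, at 71.3 RPM, and the E07 cells at 10 RPM or more are mostly from cluster 10.

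At E06 most cells held both genes, and from E07 to E09 many held DPRX only. Both were detected in 40 of 43 cells of E06, and the other 3 held DPRX only. At E07 20 cells held both and 15 held DPRX only, at E08 11 held both, 76 DPRX only, 1 ARGFX only and 7 neither, and at E09 5 held both and 15 DPRX only. Of the 197 cells of E13 to E17, 162 held neither, 28 DPRX only, 5 ARGFX only and 2 both. Of the 31 ESCs, 23 held neither, 4 DPRX only and 4 ARGFX only. Over all 421 monkey cells, 78 held both, 141 DPRX only, 10 ARGFX only and 192 neither. Where both were present their levels were only loosely tied. Over the 31 inner-cell-mass-like E06 cells, Pearson's r between them was 0.31 and Spearman's rho 0.23, on the log2(RPM + 1) scale. Over the 24 epiblast-like cells of E08 r was 0.26. In the inner-cell-mass-like cells DPRX was lower in cells with more reads (r = -0.57 with log2 reads per cell), and ARGFX likewise (r = -0.36). These cells mix title codes of unlike depth, described below. For ARGFX this r was not computed in other classes. For DPRX its sign and size varied between classes, at 0.50 in epiblast-like E08 cells and -0.03 in cluster 10 at E06. It was 0.24 in hypoblast-like and 0.06 in trophectoderm-like cells of E08, and -0.23 in hypoblast-like E07 cells. In the inner-cell-mass-like E06 cells ARGFX also ran opposite to the mean of the hypoblast markers (r = -0.53, and -0.35 for DPRX). For ARGFX r was 0.30 with the trophectoderm, 0.04 with the epiblast and -0.07 with the inner cell mass markers. In cluster 10 at E06 the r of DPRX with the hypoblast markers had the other sign, at 0.35. These are descriptions over cells that share days and title codes.

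**Figure D4:**
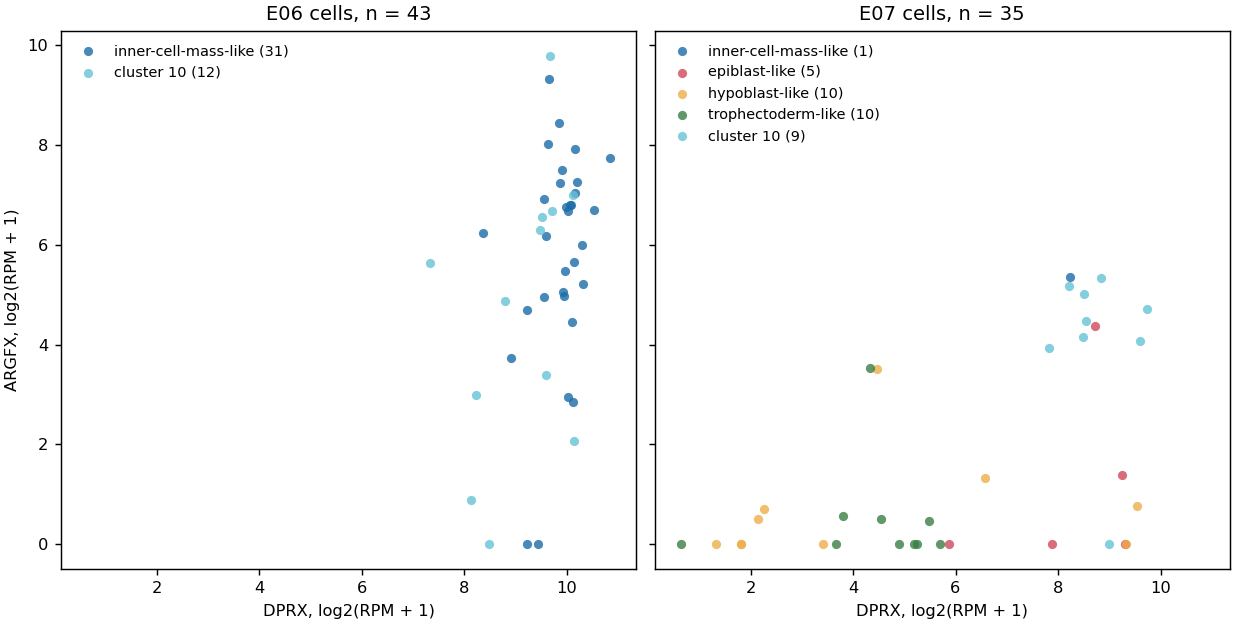
ARGFX against DPRX, both as log2(RPM + 1), in the 43 E06 cells (left) and the 35 E07 cells (right); points are cells coloured by class. At E06 DPRX is high in every cell while ARGFX runs from 0 to 882.5 RPM, and at E07 most cells with more than a trace of ARGFX are from cluster 10.

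The sample titles carry a code that splits some days, and the labels do not say what it stands for. At E06 the inner-cell-mass-like cells came from the codes MS68 (12 cells) and MS03 (19 cells), and both genes had the higher median under MS68. The DPRX median was 1109 RPM under MS68 and 965.03 RPM under MS03, and that of ARGFX was 135 RPM under MS68 and 32.4 RPM under MS03. ARGFX reached 100 RPM in 10 of 12 cells of MS68 and in 5 of 19 cells of MS03. In cluster 10 at E06 the order was the opposite for both genes. There the DPRX median was 356 RPM under MS68 (3 cells) and 725 RPM under MS03 (9 cells), and that of ARGFX was 6.92 RPM under MS68 and 48.9 RPM under MS03. Median depth over the E06 cells was lower under MS68, at 1060156 reads, than under MS03, at 1900642 reads, and its part in these values was not tested.

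MS03 alone also holds a series of days. In it the DPRX median was 802 RPM at E06 (28 cells), 94.5 RPM at E07 (29 cells), 122 RPM at E08 (2 cells) and 19.6 RPM at E09 (20 cells), and that of ARGFX was 37.97, 0.483, 6.82 and 0 RPM on the same days. The 2 cells of E08 held 21.7 and 222 RPM of DPRX and 13.6 and 0 RPM of ARGFX. MS08 is the code that early and late days share. Under it DPRX was found in 6 of 6 cells at E07, from 21.3 to 636 RPM, in 0 of 9 cells at E14 (up to 33.3%) and in 6 of 20 cells at E16, at most 41.1 RPM. ARGFX was found there in 2 of 6 cells at E07, at most 10.4 RPM, in 1 of 9 at E14 and in 2 of 20 at E16, at most 0.731 RPM. The late shares of DPRX differed by code. At E13 they were 0 of 20 cells in MS10 (median depth 582254 reads), 3 of 10 in MS13 and 4 of 16 in MS61. At E14 they were 9 of 20 in MS09, 3 of 16 in MS13, 2 of 13 in MS61 and 0 of 4 in MS10. Cell classes also differed between codes, and the part of class and depth was not tested.

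From early to late days both genes fell away in level. Averaged over days, DPRX was at 0.42 ± 0.31 in the 4 late days (E13 to E17) against 6.11 ± 2.50 in the 4 early days (E06 to E09) on the log2(RPM + 1) scale, a difference of -5.69 (SD over days). The late days lay between 0 and 0.65 and the early days between 4.17 and 9.64, without overlap. ARGFX was at 0.05 ± 0.05 in late days against 1.99 ± 2.41 in early days, a difference of -1.94, and the ranges of 0.01 to 0.12 in late and 0.29 to 5.48 in early days did not overlap. The ARGFX value rests on E06: without that day the difference was -0.78, while for DPRX it was -4.52. For scale, limma called 33.2% of 10069 tested genes lower and 18.3% higher in late days at an adjusted p under 0.05. Nothing is read from this, or from the lack of overlap, for the 2 genes, which were chosen for that pattern. ARGFX did not reach the level that put a gene into this test (a mean of 2 on at least 3 days), and DPRX did.

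Levels in the cells named epiblast-like were also lower on late days, but the early and late ones came from different clusters. All 34 early cells formed cluster 9 and the 105 late cells formed clusters 4 (56 cells) and 8 (49 cells). Each of these clusters raised 6 of 7 epiblast markers, but inner cell mass markers were raised 8 of 9 in cluster 9, 0 of 9 in cluster 4 and 2 of 9 in cluster 8. Late epiblast-like cells held DPRX in 2 of 24 cells at E13, 2 of 25 at E14, 7 of 21 at E16 and 0 of 35 at E17 (up to 8.57%). The highest of them was an E16 cell with 41.1 RPM, the only late epiblast-like cell to reach 10 RPM. Several of the other E16 cells with DPRX held a single read, at 0.690 to 0.800 RPM. Over units of 1 class and day, DPRX averaged 0.28 ± 0.28 in 4 late units against 7.54 ± 0.62 in 3 early units (SD over units), a difference of -7.26. ARGFX averaged 0.05 ± 0.04 in late against 1.16 ± 0.48 in early epiblast-like units, a difference of -1.11. Late and early units overlapped for neither gene, but nothing is read from this, since both were chosen with such a pattern known. How many of all genes lack such overlap is not given here. By another criterion, limma called 24.2% of 9892 tested genes lower and 13.3% higher in late units. ARGFX did not reach the level for this test, and DPRX did. The early units of E07 and E09 rest on 5 cells each.

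The other late classes held traces of DPRX. It was found in 5 of 9 trophectoderm-like cells of E14, at most 7.93 RPM, and in 9 of 32 extraembryonic-mesenchyme-like cells, at most 53.8 RPM. Of the 31 gastrulating-like cells, 2 held DPRX, both from E13 (1.46 and 6.74 RPM in 2 of 2 cells). It was found in 0 of 10 such cells at E16 (up to 30%) and 0 of 18 at E17 (up to 16.7%).

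ESCs held next to no DPRX or ARGFX. DPRX was detected in 1 of 14 CMK6 cells on feeders (2.91 RPM), in 3 of 9 CMK6 cells without feeders (7.21, 1.20 and 0.619 RPM) and in 0 of 8 CMK9 cells (up to 37.5%). ARGFX was detected by a single read each in 2 of 14, 1 of 9 and 1 of 8 cells of the same cultures, at 0.461 to 0.594 RPM. The mean log2(RPM + 1) of DPRX over the 3 cultures was 0.23 ± 0.28, against 7.54 ± 0.62 in the early epiblast-like units, a difference of -7.31. For ARGFX it was 0.08 ± 0.02 in ESCs against 1.16 ± 0.48 in early epiblast-like units, a difference of -1.08. Here 13.7% of 10142 tested genes were called lower and 16.2% higher in ESCs. CMK6 gave 2 of the 3 cultures, and the early units are the same as in the comparison with late epiblast-like cells, so the values of the 2 comparisons are not independent.

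In monkey cells the ETCHbox relatives and CRX were found in few cells or at a few reads. LEUTX was detected in 4 of 421 monkey cells and never above 1.02 RPM. TPRX1 was detected in 100 cells, in 12 of them at E06, but its highest cell held 24.8 RPM, and no unit averaged above 0.49 on the log2(RPM + 1) scale. CRX, the parent gene of the group, was detected in 11 cells, at most 9.73 RPM. TPRX2 and PARGFX were not analysed here. OTX1 was detected in 44 cells. OTX2, a head and epiblast regulator, was detected in 259 cells and was highest in gastrulating-like cells of E16 (5.86 ± 3.08). In inner-cell-mass-like E06 cells OTX2 stood at 3.74 ± 2.15, and in epiblast-like cells of E08 at 0.45 ± 0.79. In mouse cells, 4 Obox genes (Obox1, Obox2, Obox3 and Obox5) had no read in 71 cells (up to 4.23%). Obox6 was found in 3 of 10 mouse ESCs, 1 of 25 cells of E5.5 and 4 of 24 cells of E6.5, at most 27.7 RPM. Mouse Crx was found in 24 of 24 cells of E6.5, at a median of 16.9 RPM and at most 1092 RPM, in 7 of 25 cells of E5.5, 1 of 12 EpiLCs and 1 of 10 ESCs, at most 2.75 RPM. Mouse Otx2 was found in 25 of 25 cells of E5.5, at a median of 176 RPM.

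Among 40 PRD-class genes in the table, 7 reached a mean of 2 in at least 3 units, and none of these 7 was highest in inner-cell-mass-like cells or cluster 10. A gene confined to those units could pass only by reaching that mean in each of them. Below the filter TPRX1 (0.49) and RHOXF2 (1.16) were highest in cluster 10 at E06, PHOX2A (1.23) in cluster 10 at E07 and ESX1 (0.14) in inner-cell-mass-like E06 cells. The other genes below it that had reads were highest in other units. In the test of late against early days limma called 2 of 4 tested PRD-class genes higher and 0 lower, where 51.5% of all 10069 genes were called in either direction. Their median difference was 0.71 against -0.24 over all tested genes. A gene enters this test by being high in some units, so these counts and medians, and those of the other 2 comparisons, say nothing of the list's other genes. HESX1, a repressor of the early head region and of pluripotent cells, was at 2.92 in late against 0.42 in early days (difference 2.50 ± 0.26 SE, adjusted p = 1.62e-05). With that early mean it entered the test through the late days alone, so that higher was the one outcome open to it. PRRX2, a mesenchyme gene, also rose, by 0.81 ± 0.29 (adjusted p = 0.0345). Its call was lost in 5 of 12 other settings, with adjusted p up to 0.0873, among them the settings without E08 (0.0873), E09 (0.0808), E13 (0.0818) or E14 (0.0561). PRRX2 was highest in extraembryonic-mesenchyme-like cells, which were found from E13 on.

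Inside the epiblast-like class HESX1 rose again, at 4.92 in late against 0.69 in early units (difference 4.23 ± 0.51 SE, limma adjusted p = 6.48e-05). Here too it entered mainly through the late units, so its direction was largely set by the filter. MIXL1, a mesendoderm gene, was lower in late units, at 1.62 in late against 3.89 in early units (difference -2.27 ± 0.61, adjusted p = 0.0108), a call lost in 6 of 15 other settings with adjusted p up to 0.323, among them units of at least 10 cells (0.323), the log2 of the mean RPM (0.278) and leaving out E07 (0.0540). MIXL1 is also one of the gastrulating markers used to name clusters, and it was raised in the gastrulating-like cluster and in cluster 3. Late cells of those clusters lie outside the late epiblast-like units. MIXL1 also entered mainly through the early units, so nothing is read from its call. Over all cells it was not called, at 2.68 in late against 2.07 in early days (limma adjusted p = 0.447). Within the epiblast-like class PRRX2 did not pass (difference 0.43, limma adjusted p = 0.378). In ESCs all 3 tested PRD-class genes were called: HESX1 was at 5.75 in ESCs against 0.69 in early epiblast-like units (adjusted p = 9.64e-05), OTX2 at 4.19 in ESCs against 0.77 in those units (adjusted p = 0.000663) and MIXL1 at 1.08 in ESCs against 3.89 in those units (adjusted p = 0.00533). Each of the 3 was low on 1 side and entered mainly through the other, so its direction was largely set by the filter, and nothing is read from these calls. The MIXL1 call in ESCs was lost in 2 of 10 other settings, both of which add E06 cells to the early units (adjusted p = 0.103 and 0.153). The median difference of the tested PRD-class genes was 0.43 in late epiblast-like units, against -0.26 over all genes, and 3.43 in ESCs, against 0.06 over all genes. In either direction 37.5% of genes were called in the epiblast-like comparison and 29.9% in that of ESCs.

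**Figure D5:**
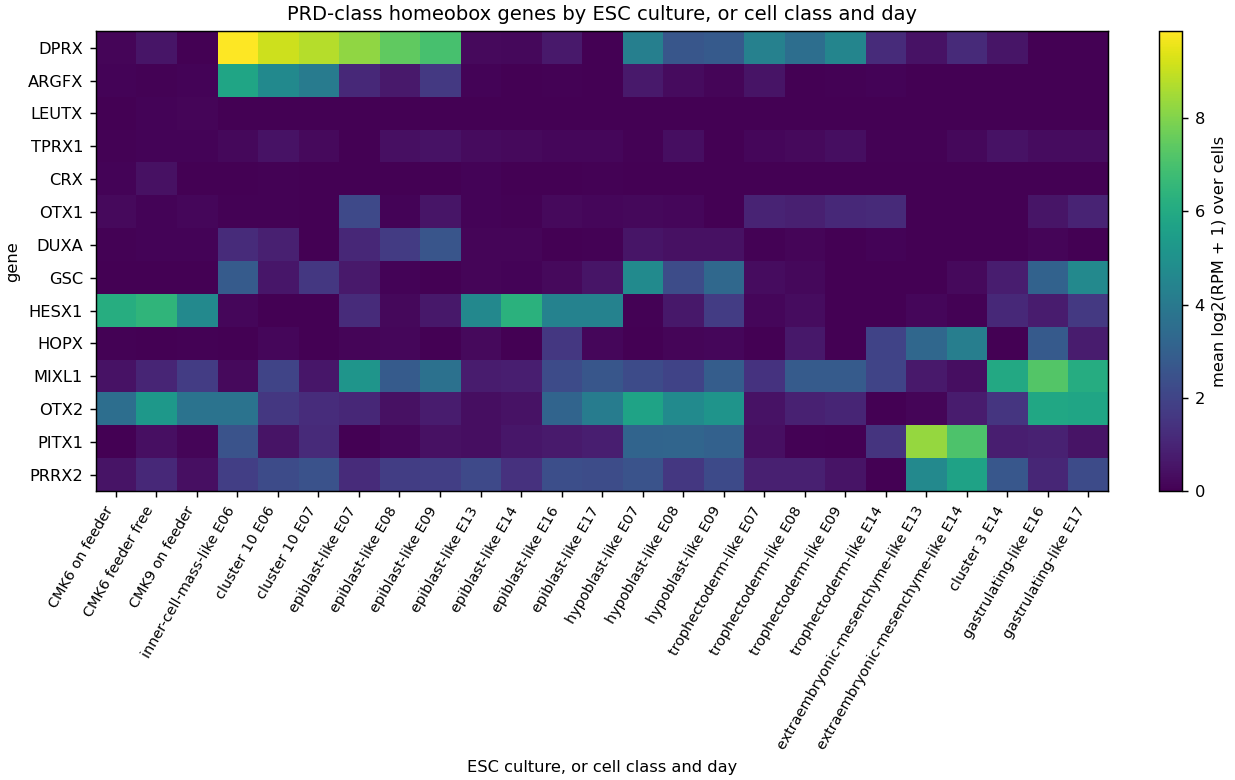
Mean log2(RPM + 1) of DPRX, ARGFX, their relatives and the PRD-class genes that reached a mean of 2 in at least 3 units, by ESC culture and by cell class and day; each row is 1 gene, and colours compare units along a row. DPRX and ARGFX are brightest in the inner-cell-mass-like and cluster 10 columns, HESX1 in ESC and late epiblast-like columns, and PITX1 in extraembryonic-mesenchyme-like columns.

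Lists of genes known from embryonic genome activation and from the oocyte were read beside DPRX and ARGFX. A gene entered a test through a mean of 2 in at least 3 units, and several of the listed genes passed only through the early units where they were high, so nothing is read from the counts that follow. Of 14 genome-activation genes in the table, 3 could be tested over days, and 3 of 3 were lower in late days, where 33.2% of all tested genes were called lower. In the epiblast-like class 2 of 3 were lower in late units, beside 24.2% of all tested genes. The 2 that could be tested in ESCs, KHDC1L and KLF17, had means there of 0.11 and 0.01 and passed through the early epiblast-like units alone, so that lower was the one outcome open to them. KHDC1L, a gene of the KHDC family, was at 2.19 in late against 10.28 in early days (difference -8.09 ± 0.56 SE, limma adjusted p = 8.53e-07). Its unit mean was highest in inner-cell-mass-like E06 cells, at 11.43 ± 0.40. DUXA, the homeobox gene that in human acts at genome activation, was detected in 73 cells and peaked instead in epiblast-like cells of E09 (2.58 ± 2.36, 5 cells). KLF17, a pluripotency factor of the human epiblast before implantation, was one of the inner cell mass markers raised in cluster 9. It was lower in the epiblast-like class (0.13 in late against 3.13 in early units, limma adjusted p = 1.65e-05). In ESCs it was also lower (0.01 in ESCs against 3.13 in early epiblast-like units, limma adjusted p = 0.000102). Both times KLF17 passed through the early epiblast-like units alone, which cluster 9 made up, so that lower was the one outcome open to it. Within the epiblast-like class CCNA1 did not pass (difference 1.00, adjusted p = 0.125).

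Of 13 oocyte genes, 3 of 4 tested were lower in late days and 5 of 5 in late epiblast-like units, beside 33.2% and 24.2% of all tested genes. In ESCs the 5 tested ones had means of 0.02 to 0.40 and passed through the early epiblast-like units alone, so their being lower there was fixed by the filter. OOEP and KHDC3L were also among the 10 leading genes of cluster 9, which made up the early epiblast-like units. NLRP7 and NLRP2, NLR-family genes of the oocyte, and OOEP and KHDC3L, members of the subcortical maternal complex, were the abundant ones. NLRP7 was at 2.52 in late against 11.76 in early days (adjusted p = 3.57e-06), and at 0.37 in ESCs against 11.58 in early epiblast-like units (adjusted p = 5.81e-09). KHDC3L did not pass over all cells, at 6.30 in late against 5.61 in early days (adjusted p = 0.297). In ESCs it was at 0.16 against 12.35 in early epiblast-like units (adjusted p = 2.78e-10). Its call in the epiblast-like class (7.83 in late against 12.35 in early units, adjusted p = 0.0306) was lost in 9 of 15 other settings, with adjusted p up to 0.295. Among them were leaving out E07, E08, E09, E16 or E17 (0.0619 to 0.0823), no filter on low values (0.171), units of at least 10 cells (0.295) and E06 cells added to the early units (0.193 and 0.142). NLRP2 and OOEP lost theirs in 2 and 1 of 15 settings (up to 0.203 and 0.0604).

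By Pearson's correlation over 25 units (each class and day of at least 5 cells, and the 3 ESC cultures) among 11782 genes, the gene most like DPRX was MAP1LC3B, an autophagosome membrane protein (r = 0.97). Its mean log2(RPM + 1) was 10.02 in inner-cell-mass-like E06 cells, 8.40 in epiblast-like E08 cells and 6.52 over late epiblast-like units. The next were CLPX, a mitochondrial chaperone (r = 0.95), ARRDC5, an arrestin-domain gene (0.95), CCPG1, a receptor for autophagy of the endoplasmic reticulum (0.94), GHITM, a mitochondrial membrane protein (0.93), PDHB, a pyruvate dehydrogenase subunit (0.93), LOC102139102 (0.93), LOC102120398 (0.93), STOM, a membrane scaffold protein (0.93), and SPIC, an ETS-family factor (0.92). STOM ranged from 2.79 to 10.44 over the units and GHITM from 7.55 to 11.09, beside 0 to 9.86 for DPRX.

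The gene most like ARGFX was TMEM176B, a membrane protein gene, with r = 0.95. TMEM176B was at 6.35 in inner-cell-mass-like E06 cells and at 0.35 in epiblast-like E08 cells. ALOX15, a lipoxygenase (0.94), ARRDC5 (0.90), M1AP, a meiosis gene (0.89), LOC102125978 (0.88), LOC102135434 (0.88), HHAT, the acyltransferase of Hedgehog proteins (0.88), LOC102119362 (0.87), SPIC (0.87) and LOC102139102 (0.86) followed. The lists share 3 genes: ARRDC5, LOC102139102 and SPIC. DPRX and ARGFX themselves had r = 0.81 (rho = 0.76) over the 25 units. SPIC was among the inner cell mass markers used to name clusters, and the units share days, title codes and a clustering made from these genes. By Spearman's correlation 1 of the 10 genes stayed among the 10 highest for DPRX and 0 of 10 for ARGFX.

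In the reference gene order DPRX lies on chromosome 19 beside ZNF415, ZNF677, ZNF331, NLRP12 and MYADM, and ARGFX on chromosome 2 beside GOLGB1, HCLS1, FBXO40, POLQ, STXBP5L and GTF2E1. Over the 25 units the correlation with DPRX ran from 0.00064 (ZNF415) to 0.56 (ZNF677) among 3 of these neighbours with values. With ARGFX it ran from -0.14 (STXBP5L) to 0.53 (HCLS1) among 6. FBXO40, next to ARGFX, was detected in 32 cells, and no unit averaged above 0.29. HCLS1, a haematopoietic signalling gene, was highest in cluster 10 at E06 (2.26), where ARGFX was also present.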

How the data were processed

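The 2 genes and all gene lists were chosen with earlier results of these data known. The authors deposited 1 table of RPM values per species, with 1 column per cell. Per the file headers the monkey values are on macFas5. The tools named in the submitters' processing notes are cutadapt (1.3), TopHat (1.4.1) and Cufflinks (2.2.0), with no roles stated. How reads with several matches were handled is not stated, and both genes have processed copies in the human genome, with which reads could be shared. Of the mouse columns, 37 matched no sample and were not used.

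A cell's read was taken as the most common value above 0.01 RPM. Of values up to 500 such steps, at least 99.7% per cell were whole to within 0.1 read. Limits on shares of 0 are 3 cells of the total. No doublet caller was run on these single-cell libraries.

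Embryo cells were clustered with scanpy 1.11.5 and igraph 0.11.9 on the 2000 genes of highest variance that exceeded 10 RPM in 5 or more cells, with 12 principal components, 10 neighbours and Leiden resolution 1. A marker counted as raised at a difference of 1 and a level of 3 (log2). The rule for names, with epiblast ahead of inner cell mass where both applied, was set after the clusters were seen.

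Unit means of log2(RPM + 1) were compared with limma 3.58.1 in R 4.3.3 (intensity trend, two-sided, Benjamini-Hochberg) for genes whose mean reached 2 in 3 or more units. No label tells embryos apart, so p-values measure the spread between days or cultures. The test was tried on simulated data. Named were the 2 genes, ETCHbox relatives, listed genes that passed a test, the 3 genes on each side in a RefSeq gene table of a newer assembly, and the 10 most correlated genes; ZNF331 and NLRP12 among the neighbours were not analysed here, and 1 other neighbour and 1 other PRD-class gene are not reported here. Further genes (DUXA, KHDC3L, CCNA1, GATA4, NANOG, SOX17, POU5F1, RHOXF2, PHOX2A and ESX1) were added after their values were seen. Alternatives were another pseudocount, filter, averaging, normalization, resolution, unit size and E06 assignment, and each day or culture left out.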

Additional observations from a re-analysis of the deposited data

Results flagged for a closer look

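In 9 of 25 groups of 4 to 10 cells or days, 1 value stood apart from the others by the ratio of its gap to the range of the group. Chance alone marks about 1 in 20 such groups when values follow a normal distribution, and groups with most cells at 0 are marked by any single read. In feeder-free CMK6 cells DPRX was at most 7.21 RPM, with the next cell at 1.20 RPM. In trophectoderm-like E09 cells the highest DPRX value was 212 RPM, with the next at 97.5 RPM. ARGFX stood apart in 1 epiblast-like E07 cell (19.7 RPM, next 1.62), 1 hypoblast-like E07 cell (10.4 RPM, next 1.52) and 1 trophectoderm-like E07 cell (10.6 RPM, next 0.483). In 4 groups every other cell was at 0: ARGFX was 0.461 RPM in a feeder-free CMK6 cell, 0.594 RPM in a CMK9 cell, 0.434 RPM in a trophectoderm-like E09 cell and 0.660 RPM in a trophectoderm-like E14 cell, each a single read.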

How the results depend on the processing

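No setting reversed the direction of a DPRX or ARGFX difference. With a pseudocount of 10 the DPRX differences shrank to -3.33 (days), -4.39 (late epiblast-like) and -4.42 (ESCs), and those of ARGFX to -0.36 in both epiblast-like comparisons. With the log2 of the mean RPM the ARGFX differences were -2.24 (late epiblast-like) and -2.25 (ESCs), and DPRX in ESCs was -7.96. Counting E06 cells outside trophectoderm-like clusters, cluster 10 included, as an early epiblast unit gave -7.78 and -7.84 for DPRX and -2.19 and -2.16 for ARGFX; with the inner-cell-mass-like E06 cells alone, chosen after seeing the data, these were -7.84, -7.89, -2.26 and -2.24. Leaving out 1 day or culture gave DPRX differences of -6.34 to -4.52 (days), -7.54 to -6.92 (late epiblast-like) and -7.60 to -6.98 (ESCs), and ARGFX differences of -2.51 to -0.78, -1.34 to -0.87 and -1.32 to -0.84. Counts of called genes over all genes were 5183 (days; 4242 to 5000 with 1 day left out), 3710 (late epiblast-like; 2546 to 3635) and 3031 (ESCs; 1809 without CMK6 on feeders, 1885 without E08, at most 2226). With units of at least 10 cells, where only E08 is left as an early unit, 787 and 714 genes were called. Of the called genes, 35.5% were higher in late days and 35.4% in late epiblast-like units; quantile normalization gave 49.96% and 52.2%, and the log2 of the mean RPM 51.3% and 49.1%. The 27 calls of listed genes were tried in 321 instances in all: 296 stayed called, 25 did not, and none of them changed sign. Thinned to 500000 reads per cell, DPRX was expected in 74.9% of E08 cells, beside 91.6% at full depth. No paired analysis was possible because the labels give no replicate numbers, early and late days share only the title code MS08, and the ESC cultures share no code with early days. The planned edgeR count test was not run, since the deposited RPM values include small fractions that are not whole reads.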
